A study of Mus musculus with 9 samples.

Results

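The nuclear-encoded subunits of the respiratory chain were taken from a table of mouse prelimbic cortex RNA by gene symbol. Symbols that start with Nduf (letters a, b, c, s or v and a number) were placed in complex I, Sdha to Sdhd in complex II, Uqcr in complex III, Cox4 to Cox8 in complex IV and Atp5 in complex V. The rule found 85 rows of 55335, with 84 different symbols: 36 in complex I, 4 in complex II, 8 in complex III, 19 in complex IV and 18 in complex V. A filter on low counts left 82 of them for testing, among 21765 genes tested. The 3 rows that did not pass were Cox7b2, Cox8c and a second row named Atp5o, and the last 2 of these had a count of 0 in all 9 libraries. Cox6c2, which passed, is annotated as a processed pseudogene. The symbol rule puts Ndufa4 in complex I, although its protein is now counted with complex IV.

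The respiratory chain passes electrons from NADH (complex I) and succinate (complex II) through complex III to oxygen at complex IV, and the proton gradient made on the way drives ATP synthesis by complex V. Complexes I, III, IV and V are built from nuclear and mitochondrially encoded subunits together, while complex II is wholly nuclear. Neurons depend on this pathway for the ion pumping that synaptic signalling requires. All 37 mitochondrially encoded rows of the table read 0 in all 9 libraries, so they are not described here.

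The samples were bulk tissue of the prelimbic cortex, part of the medial prefrontal cortex, taken from 9 mice 14 days after their operation. There were 3 mice in each of 3 groups: sham surgery with saline, spared nerve injury (SNI, a model of neuropathic pain in which branches of the sciatic nerve are cut) with saline, and SNI with R-HNK, a form of the ketamine metabolite hydroxynorketamine, at 10 mg/kg. The groups are called sham, injured saline and R-HNK below. The sources used here do not give strain, sex or age, and there was no sham group given R-HNK. Each comparison shares a group with the others, so their values are not independent of each other.

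Totals ran from 53624337 to 73586375 counts per library. Markers of cortical excitatory neurons were abundant throughout, with a sum over 10 genes of 4860 to 6210 CPM (counts scaled to a common library total). Markers of striatal medium spiny neurons, cells outside the cortex, differed between libraries: their sum over 15 genes was 396, 1740 and 1890 CPM (lowest, median, highest) among sham mice, 381 to 409 CPM among injured saline mice and 397, 825 and 1170 CPM among R-HNK mice. The sum was raised in replicates 2 and 3 of sham and in replicates 1 and 3 of R-HNK. No striatal marker was at 0 in all 3 libraries of a group. Oligodendrocyte markers summed to 3420 to 7160 CPM in sham, 3420 to 4850 CPM in injured saline and 3560 to 6920 CPM in R-HNK. In bulk tissue, fewer cells of a type and less RNA per cell cannot be told apart.

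Promoter letters are shown first, because subunits of all 5 complexes carry some of the same ones. NRF1, YY1 and the ETS factor GABP are known regulators of nuclear respiratory genes. RefSeq promoter windows (GRCm38.p6, 250 bases before to 50 after the annotated start) matched 68 of the 84 symbols. Only the first listed window of a gene was used, also where it had more than 1. The windows were searched on both strands for a core of 10 letters known for NRF1, in which 1 position may be any base, for CCGGAAG (ETS) and for AAGATGGC (YY1). NRF1 letters were in 16 of the 68 subunit windows (23.5%) and in 4.78% of the windows of 27025 genes. ETS letters were also in 16 (23.5%, against 9.12% of all), and YY1 letters in 9 (13.2%, against 2.88%). The stretches below hold every NRF1 and ETS match of these genes up to 20 bases past the start, or the YY1 match for Atp5f1, in capitals, read 5′ to 3′ on the strand of the gene. They were chosen to give 2 genes for each complex from I to V.
Ndufs5 (complex I, chr4:123718245-123718314, minus strand): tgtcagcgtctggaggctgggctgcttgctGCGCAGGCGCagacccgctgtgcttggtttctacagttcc
Ndufs3 (complex I, chr2:90904702-90904778, minus strand): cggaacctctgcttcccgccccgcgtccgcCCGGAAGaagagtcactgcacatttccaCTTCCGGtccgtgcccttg
Sdha (complex II, chr13:74350221-74350368, minus strand): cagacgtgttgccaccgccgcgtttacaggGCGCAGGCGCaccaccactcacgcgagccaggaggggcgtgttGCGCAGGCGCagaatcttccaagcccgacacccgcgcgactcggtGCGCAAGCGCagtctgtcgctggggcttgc
Sdhd (complex II, chr9:50603859-50603958, minus strand): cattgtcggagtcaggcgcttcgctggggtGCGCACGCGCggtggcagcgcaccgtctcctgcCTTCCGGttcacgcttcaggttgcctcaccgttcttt
Uqcrh (complex III, chr4:116075051-116075110, minus strand): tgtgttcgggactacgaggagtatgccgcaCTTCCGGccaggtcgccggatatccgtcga
Uqcr11 (complex III, chr10:80406851-80406917, minus strand): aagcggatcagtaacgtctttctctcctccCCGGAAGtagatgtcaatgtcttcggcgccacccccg
Cox6a1 (complex IV, chr5:115348939-115349150, minus strand): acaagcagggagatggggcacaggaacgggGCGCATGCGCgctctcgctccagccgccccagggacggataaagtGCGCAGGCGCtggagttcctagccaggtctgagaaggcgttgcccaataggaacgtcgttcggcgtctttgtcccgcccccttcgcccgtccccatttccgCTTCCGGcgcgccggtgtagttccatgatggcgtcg
Cox6b1 (complex IV, chr7:30626106-30626172, minus strand): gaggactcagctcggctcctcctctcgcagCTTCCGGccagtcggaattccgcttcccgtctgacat
Atp5h (complex V, chr11:115419921-115420090, minus strand): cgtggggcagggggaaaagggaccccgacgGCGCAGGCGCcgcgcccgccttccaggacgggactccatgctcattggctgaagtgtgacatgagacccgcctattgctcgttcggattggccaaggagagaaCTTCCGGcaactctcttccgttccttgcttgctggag
Atp5f1 (complex V, chr3:105959244-105959296, minus strand): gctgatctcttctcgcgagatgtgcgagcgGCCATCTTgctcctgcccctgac

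NRF1 letters stood wholly before the start in 12 of the 16 genes and ETS letters in 11 of the 16. No YY1 match lay wholly before the start, and its letters include the triplet ATG. By complex, NRF1 letters were in 7 of 32 windows of complex I, 2 of 3 of complex II, 1 of 5 of complex III, 1 of 13 of complex IV and 5 of 15 of complex V. YY1 letters were in 7 windows of complex I and 2 of complex V, and in none of the others. None of the 22 NRF1 or 9 YY1 matches overlapped another motif searched, and 1 of 19 ETS matches did. Other letters were closer to their share among all genes: GGGCGG (SP1) in 41.2% against 35.9%, CCAAT in 44.1% against 37.9% and TATAAA in 11.8% against 14.2%. TGACGTCA (CRE) was in 5.88% against 1.88%. These matches describe letters in the windows and do not show that a factor binds there.

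Levels were compared between genes only as CPM per kilobase of the principal transcript. Complex IV spanned the widest range: Cox8a (592), Cox6a1 (572) and Cox4i1 (536 CPM per kilobase) stood at the top, and its tissue-restricted isoforms at the bottom. In complex V, Atp5b, the catalytic beta subunit, reached 489 CPM per kilobase and Atp5a1, the alpha subunit, 315. The lowest of complex V was Atp5g1 at 20.7, a value set by an annotated principal transcript of 4660 bases. Complex III ran from Uqcrfs1, the Rieske iron-sulphur protein (76.7), to Uqcrq (249). Complex I ran from Ndufs4 (23.0) to Ndufa4 (234), and complex II from Sdhc (21.1) to Sdha, the flavoprotein (121 CPM per kilobase). The value of Sdhc also rests on a long annotated principal transcript, of 3171 bases.

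Isoforms of complex IV lay far apart on the scale of CPM per kilobase, as means over the 9 libraries. Cox4i1 stood at 536 and Cox4i2 at 2.01, and Cox6a1 at 572 and Cox6a2, the form of heart and muscle, at 7.92. Cox6b1 stood at 190 and Cox6b2, known from testis, at 1.74, and Cox7a2 at 123 and the muscle form Cox7a1 at 1.98. Across libraries each gene's own level ran from 372 to 442 CPM for Cox4i1, 0.872 to 1.97 CPM for Cox4i2, 289 to 373 CPM for Cox6a1 and 4.13 to 7.17 CPM for Cox6a2. Cox8b reached at most 0.331 CPM and was at 0 in R-HNK replicate 3, and Cox7b2 reached at most 0.308 CPM. Because the tissue-restricted forms have low counts, their fold changes have large standard errors, such as 1.07 for Cox8b in injured saline against sham.

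For the 76 subunits whose mean log2 CPM was 3 or more, the spread across the 9 libraries was described. Their coefficient of variation had a median of 7.05%, and it was under 10% for 66 of them. Other genes at this level were not set beside them. Atp5b was the steadiest at 2.63%, and Ndufa12, an accessory subunit of complex I, the most variable at 26.2%. For Ndufa12 a single library decided this: injured saline replicate 1 read 52.2 CPM, while the other 8 libraries read 26.6 to 30.5 CPM. Its log2 fold change of 0.38 ± 0.21 (SE) in injured saline against sham rests on that library, and the groups overlapped (adjusted p = 0.417, edgeR's quasi-likelihood test).

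The first question was whether nerve injury went with altered subunit RNA. No subunit passed an adjusted p of 0.05 (edgeR's quasi-likelihood test, Benjamini-Hochberg adjustment over all genes tested), against 233 of all genes (1.07%). DESeq2 also called none, although it passed more genes than edgeR in each comparison (counts in the last section). Its adjusted p was 0.0528 for Ndufv2 and 0.0553 for Cox7b. At an unadjusted p under 0.05 in edgeR there were 16 subunits, all higher in injured saline than in sham. They made up 19.5% of 82, against 7.52% of all genes that were higher at this p and 9.07% that were lower. Among genes whose mean log2 CPM was 3 or more, 1392 of 10983 were higher at this p, and 16 of the 76 subunits at that level. The count of higher subunits moved with single libraries, and the share of all genes that were higher is given beside it. It was 6 of 83 without sham replicate 3 (4.65%) and 25 of 83 without injured saline replicate 3 (6.71%). Without injured saline replicate 2 it was 7 of 83 (5.28%), and 1 more subunit was lower. With an offset for GC content and transcript length it was 8 of 82 (6.85%). On the log2 scale, 75 of the 82 lay above 0 (91.5%, against 47.6% of all genes), with a median of 0.12, a 1.09-fold level. The median of all genes tested was -0.02. Among genes whose mean log2 CPM was 3 or more it was 0.02, and that of the 76 subunits was 0.12. At that level 6131 of 10983 genes and 71 of the 76 subunits lay above 0.

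Groups that did not overlap were frequent. All 3 injured saline libraries stood above all 3 sham libraries for 31 of 82 subunits (37.8%, against 10.9% of all genes), and below them for 0 (10.9% of all genes). The count depended on scaling: 34 with relative log expression factors, 28 with upper quartile factors and 19 with plain library totals, where 8.05% of all genes were higher in this way. By complex, groups were separate for 10 of 36 subunits of complex I, 3 of 4 of complex II, 5 of 8 of complex III, 4 of 17 of complex IV and 9 of 17 of complex V.

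**Figure D1:**
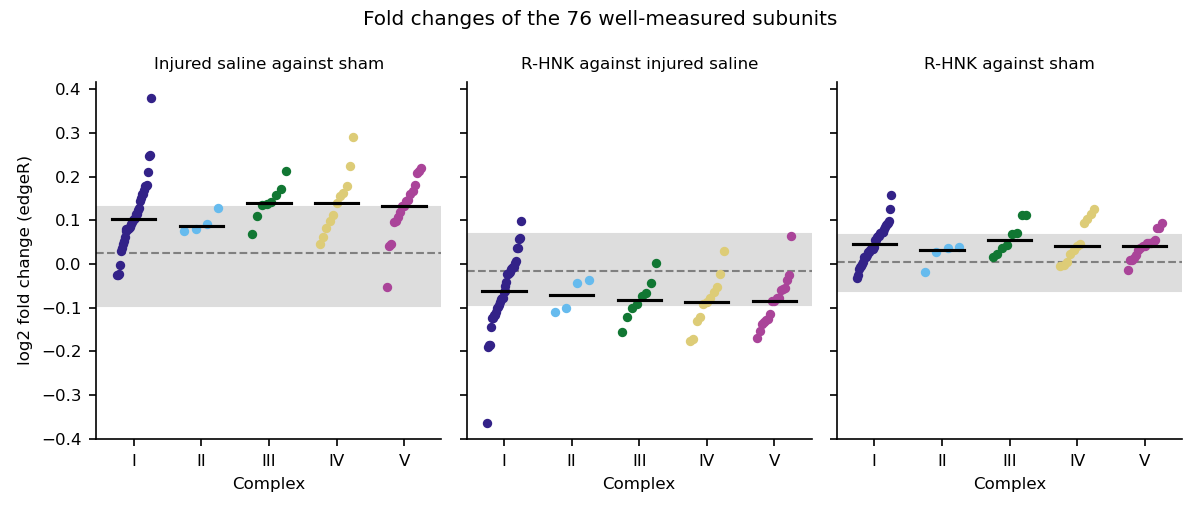
Log2 fold changes (vertical axis) of the 76 well-measured subunits by complex (horizontal axis) in the 3 comparisons; each point is a subunit, black bars are medians, and the grey band and dashed line are the middle 50% and the median of all genes at that level. Medians lie above the dashed line in injured saline against sham, below it in R-HNK against injured saline, and within 0.06 of 0 in R-HNK against sham.

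Medians of the complexes in injured saline against sham were 0.10 for complex I, 0.09 for complex II, 0.14 for complex III, 0.15 for complex IV (0.14 for its 11 well-measured subunits) and 0.13 for complex V. Whether they differ was not tested, since subunits are not replicates.

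Complex I opens the chain by taking electrons from NADH. Ndufv2, an iron-sulphur subunit of its NADH-binding arm (GENCODE M21, chr17:66078638-66101559), had 81.0, 89.8 and 81.9 CPM in sham, 96.3, 99.9 and 103.8 in injured saline, and 87.0, 96.2 and 80.4 in R-HNK replicates 1, 2 and 3. Injured saline stood above both other groups without overlap. The log2 difference from sham was 0.25 ± 0.08 (SE, adjusted p = 0.138, edgeR), the smallest p of the 82.

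Ndufs5, an accessory subunit whose promoter stretch is shown above, read 61.2, 60.3 and 56.7 CPM in sham, 69.9, 73.2 and 63.3 in injured saline, and 61.5, 65.4 and 63.4 in R-HNK. Injured saline did not overlap sham but overlapped R-HNK, with a log2 difference from sham of 0.21 ± 0.07 (SE, adjusted p = 0.168, edgeR). Ndufa10, another accessory subunit, read 112.3, 113.0 and 106.2 CPM in sham, 123.7, 135.0 and 135.5 in injured saline, and 113.6, 132.8 and 100.2 in R-HNK. Its sham and injured saline libraries did not overlap (0.25 ± 0.09, adjusted p = 0.194, edgeR), while its R-HNK libraries overlapped both.

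Ndufa4, now counted with complex IV, measured 138 ± 4.59 CPM in sham, 149 ± 4.28 in injured saline and 141 ± 5.56 in R-HNK (SD, n = 3). Its injured saline libraries stood above both other groups without overlap, at 0.12 ± 0.06 (SE) from sham (adjusted p = 0.375, edgeR).

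Complex II links the tricarboxylic acid cycle to the chain. Sdha, which oxidises succinate (chr13:74322254-74350280), read 345, 342 and 336 CPM in sham, 376, 354 and 352 in injured saline, and 363, 342 and 344 in R-HNK. Sdhb, the iron-sulphur subunit, had group means of 97.7 ± 1.39, 103 ± 3.46 and 100 ± 6.64 CPM in the same order (SD, n = 3). Both were separate between sham and injured saline, by log2 differences of 0.08 ± 0.06 and 0.08 ± 0.07 (SE).

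Of the membrane anchors, Sdhd read 53.2, 56.7 and 53.9 CPM in sham, 58.3, 58.5 and 62.1 in injured saline, and 51.9, 59.7 and 55.2 in R-HNK. Sham and injured saline did not overlap (0.13 ± 0.07, adjusted p = 0.407, edgeR). Sdhc overlapped among all groups, with 65.7 ± 5.85, 70.1 ± 3.33 and 64.9 ± 3.07 CPM. None of the 4 reached an unadjusted p of 0.05 in any comparison.

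**Figure D2:**
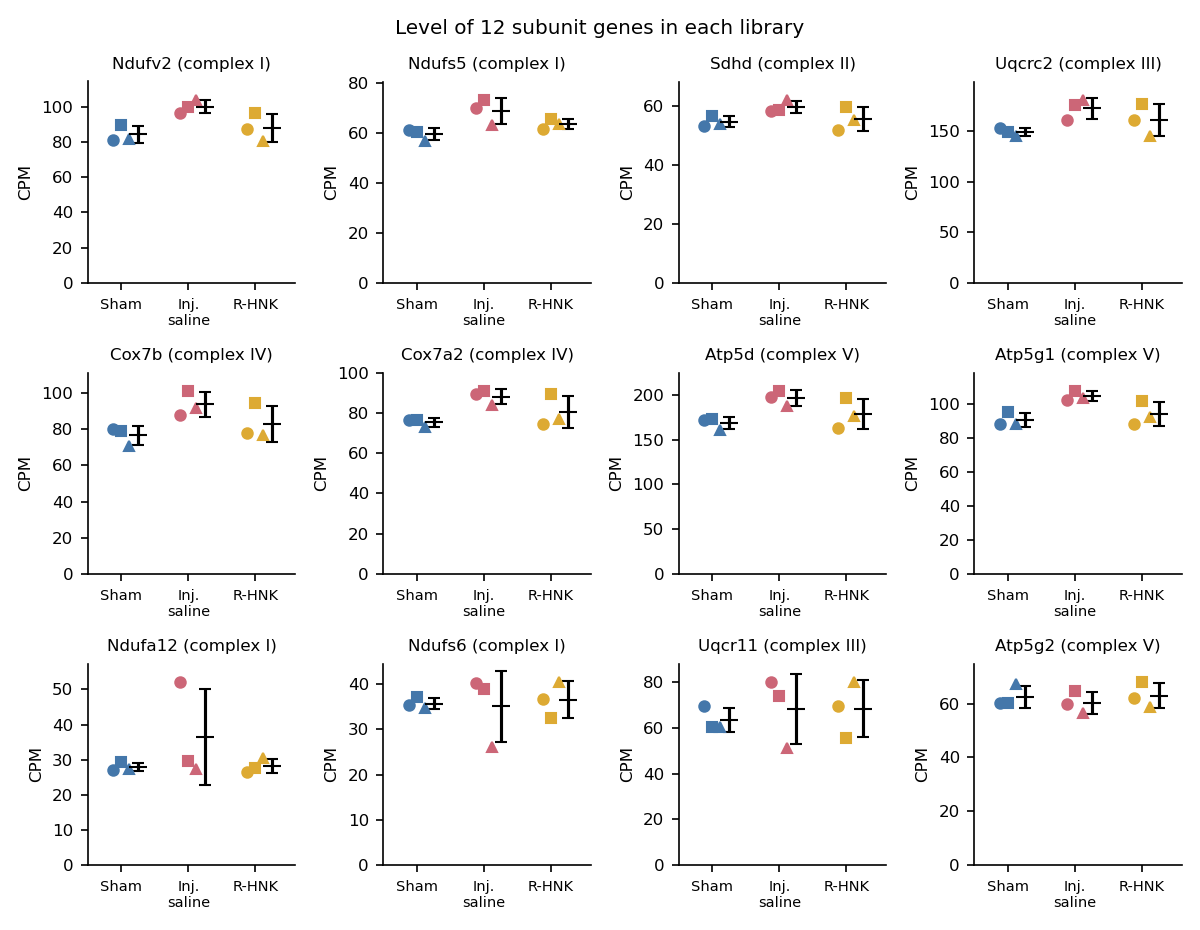
Level in CPM (vertical axis, from 0) of 12 subunit genes in the 9 libraries; circles, squares and triangles are replicates 1, 2 and 3 of a group, and the bars beside them are mean ± SD (n = 3). For Ndufv2, Ndufs5, Sdhd, Uqcrc2, Cox7b, Cox7a2, Atp5d and Atp5g1 the injured saline points lie above all sham points, Ndufa12 has 1 library at 52.2 CPM, and Ndufs6 and Uqcr11 are lowest in injured saline replicate 3.

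Complex III hands electrons from ubiquinol to cytochrome c. Uqcrc2, a core protein (chr7:120635176-120659524), read 152.8, 148.5 and 144.8 CPM in sham, 160.5, 175.9 and 180.6 in injured saline, and 160.6, 176.6 and 144.8 in R-HNK. Sham and injured saline were separate (0.21 ± 0.08, adjusted p = 0.197, edgeR), and R-HNK overlapped both. Uqcrh, the hinge protein, had means of 89.0 ± 5.83, 99.4 ± 1.09 and 91.4 ± 5.40 CPM, and injured saline stood above both other groups without overlap. Its log2 difference from sham was 0.16 ± 0.07 (SE, adjusted p = 0.276, edgeR).

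Uqcrb, which binds ubiquinone, read 45.0, 38.2 and 40.3 CPM in sham, 46.1, 48.2 and 44.9 in injured saline, and 39.7, 44.6 and 40.5 in R-HNK. Sham and injured saline overlapped by 1 library each, and R-HNK lay wholly below injured saline. Uqcr11, a small subunit, had a far wider spread: 69.5, 60.4 and 60.5 CPM in sham, 80.1, 74.2 and 51.1 in injured saline, and 69.7, 55.8 and 80.3 in R-HNK. No group stood apart for it, and its log2 difference from sham was 0.11 ± 0.18 (SE).

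Complex IV reduces oxygen. Cox7b, a small membrane subunit encoded on the X chromosome (chrX:106015700-106022450), read 80.2, 79.1 and 70.5 CPM in sham, 88.0, 101.2 and 91.9 in injured saline, and 77.7, 94.4 and 76.8 in R-HNK. Its log2 difference of 0.29 ± 0.09 (SE) between injured saline and sham was the largest of the well-measured subunits after Ndufa12 (adjusted p = 0.141, edgeR). Cox7a2, the form of Cox7a found outside muscle, had means of 75.3 ± 2.09, 88.0 ± 3.68 and 80.3 ± 7.84 CPM, and its log2 difference was 0.22 ± 0.08 (adjusted p = 0.167, edgeR). For both genes the injured saline libraries were above all sham libraries.

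Cox6b1, at 0.16 ± 0.07, was the third smallest p of complex IV, with means of 112 ± 3.60, 125 ± 7.27 and 115 ± 7.47 CPM. The abundant Cox4i1 and Cox8a had smaller differences, 0.08 ± 0.07 and 0.11 ± 0.09, and their groups overlapped because injured saline replicate 3 was low (372 and 288 CPM). Cox7a2l, a supercomplex factor related to Cox7a2, differed by 0.06 ± 0.08. Cox6a2 was separate between sham (4.65 to 4.80 CPM) and injured saline (4.94 to 7.17 CPM) at 0.35 ± 0.20 (SE, adjusted p = 0.413, edgeR), on a low level.

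Complex V makes ATP. Atp5d, the delta subunit of its F1 head (chr10:80138632-80145818), read 171.8, 173.4 and 160.3 CPM in sham, 197.0, 204.3 and 187.6 in injured saline, and 162.7, 196.7 and 175.7 in R-HNK. Sham and injured saline were well apart (0.22 ± 0.08, adjusted p = 0.174, edgeR), and R-HNK replicate 2 was as high as injured saline replicate 1. The abundant alpha and beta subunits moved little: the difference was 0.04 ± 0.06 for Atp5a1 and 0.05 ± 0.06 for Atp5b. Atp5f1, of the peripheral stalk, had means of 169 ± 5.62, 195 ± 15.3 and 173 ± 17.6 CPM, with a log2 difference of 0.21 ± 0.08 (adjusted p = 0.220, edgeR).

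The 3 genes Atp5g1, Atp5g2 and Atp5g3 encode the same c-ring protein behind different import sequences. Atp5g1 read 88.2, 94.9 and 88.2 CPM in sham, 102.4, 107.5 and 103.5 in injured saline, and 88.3, 101.7 and 91.9 in R-HNK, so that injured saline stood above both other groups (0.21 ± 0.07 from sham, adjusted p = 0.163, edgeR). Atp5g3 was separate between sham and injured saline at 0.15 ± 0.07 (167 ± 5.32 and 185 ± 10.2 CPM). Atp5g2 had 62.6 ± 4.15, 60.3 ± 4.16 and 63.0 ± 4.76 CPM and was the single tested complex V subunit below 0, at -0.05 ± 0.08. Whether the 3 genes differ in their response was not tested.

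Each library's place was described by the subunits' deviation, which is log2 CPM minus the subunit's mean over the 9 libraries. Its median over the 82 subunits was -0.05, -0.03 and -0.10 in sham replicates 1, 2 and 3. It was 0.07, 0.13 and 0.01 in injured saline and -0.05, 0.05 and -0.03 in R-HNK. All 3 injured saline libraries were thus above all sham libraries, injured saline replicate 3 by the least, and R-HNK replicate 2 lay among the injured saline libraries. As a share of all counts, the 85 rows took 0.896% to 0.920% in sham, 0.911% to 0.982% in injured saline and 0.909% to 0.948% in R-HNK, which overlap.

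**Figure D3:**
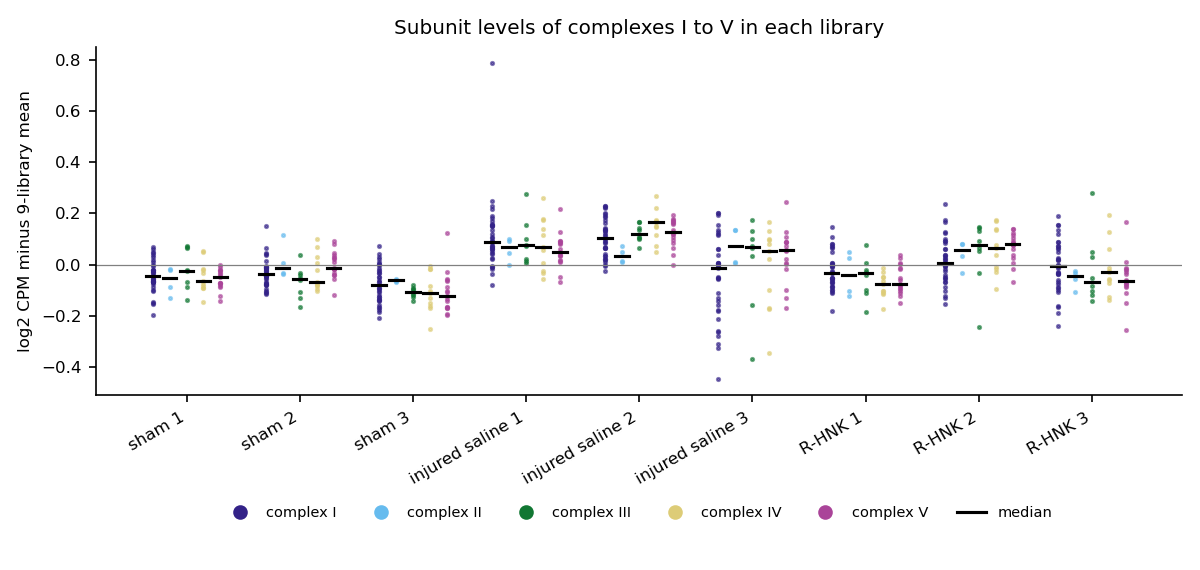
Deviation of each of the 76 well-measured subunits from its 9-library mean (vertical axis, log2 CPM) in each library (horizontal axis), coloured by complex, with black bars at the median of each complex. Complex medians lie below 0 in all 3 sham libraries and above 0 in injured saline replicates 1 and 2; in injured saline replicate 3 complexes II to V are above 0 while complex I is at -0.01 with a wide spread.

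Complex medians lay apart in some libraries. In injured saline replicate 3 the median deviation of complex I was -0.01, while those of complexes II, III, IV and V were 0.07, 0.07, 0.05 and 0.06. R-HNK replicate 2 had 0.01 for complex I and 0.06, 0.08, 0.06 and 0.08 for the others in the same order. In R-HNK replicate 3 complex I was at -0.01, above complexes II to V at -0.04, -0.07, -0.03 and -0.06. Whether complexes differ within a library was not tested. Ndufs6, an accessory subunit of complex I, read 40.3, 39.0 and 26.0 CPM in injured saline and 34.7 to 37.1 CPM in sham. Cox5b read 147.6, 133.4 and 96.8 CPM in injured saline, and Ndufv3 49.2, 47.3 and 34.4 CPM. These genes were highest or near highest in injured saline replicates 1 and 2 and lowest of all 9 in replicate 3.

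Over the subunits, GC content and transcript length both moved with this pattern. Across the 76 subunits, the deviation in injured saline replicate 3 correlated with the GC content of the principal transcript at r = -0.43, and across 10896 genes at r = -0.35. R-HNK replicate 2 had r = -0.31 over the subunits and R-HNK replicate 3 had r = 0.47, with -0.26 and 0.31 over all genes. With log2 transcript length, r over the subunits was 0.36 in injured saline replicate 3, 0.21 in R-HNK replicate 2 and -0.43 in R-HNK replicate 3. Over all genes these were 0.06, -0.06 and -0.05. Elsewhere r with length over all genes was 0.12, 0.10 and 0.14 in sham replicates 1, 2 and 3. It was -0.16 and -0.21 in injured saline replicates 1 and 2, and 0.02 in R-HNK replicate 1. GC content and length were not told apart over the subunits. Points of a library share its depth and preparation, so these values are descriptions. The part of GC content in the group differences was tested only by an offset for GC content and transcript length: the median of the 82 subunits in injured saline against sham was then 0.05, that of all genes -0.04, and 65 of 82 subunits lay above 0.

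**Figure D4:**
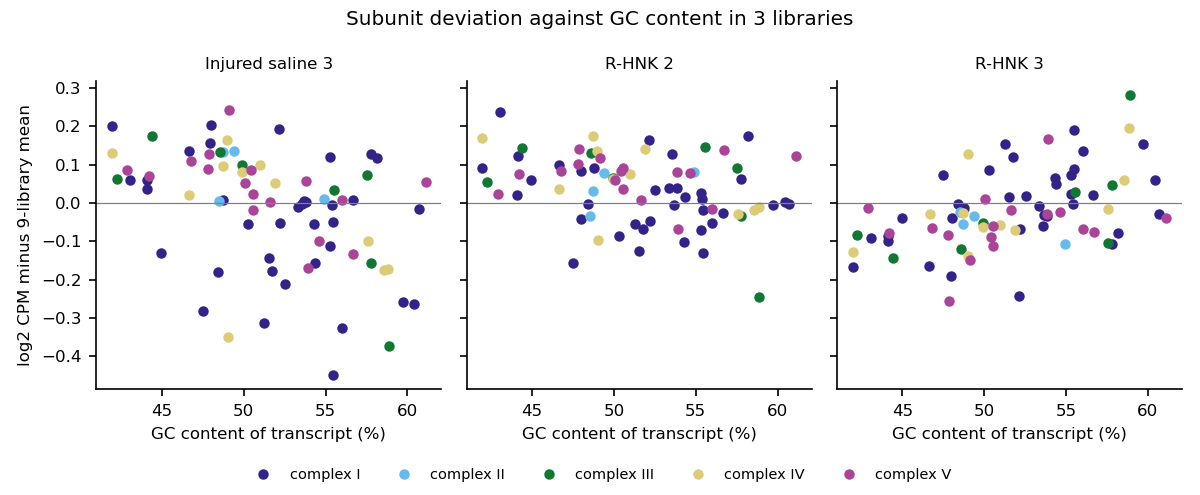
Deviation of the 76 well-measured subunits (vertical axis, log2 CPM minus the 9-library mean) against the GC content of their principal transcripts (horizontal axis, percent) in 3 libraries, coloured by complex. The points fall with GC content in injured saline replicate 3 (r = -0.43) and R-HNK replicate 2 (r = -0.31) and climb in R-HNK replicate 3 (r = 0.47).

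A principal component analysis of the 76 subunits gave 2 axes of similar size. The first held 39.8% of the variance, with negative scores for the 3 sham libraries and R-HNK replicates 1 and 3 and positive scores for the injured saline libraries and R-HNK replicate 2. The second held 37.4% and set injured saline replicate 1 (1.07) against injured saline replicate 3 (-1.07). The 4 libraries raised in striatal markers were all on the negative side of the first axis, as was sham replicate 1, which was not raised.

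No injured saline library was raised in striatal markers, while libraries of both other groups were, and results were recomputed around these markers. Without the 4 raised libraries, which keeps sham replicate 1, R-HNK replicate 2 and the 3 injured saline libraries, the median in injured saline against sham was 0.12 and 74 of 83 subunits lay above 0. Of these, 6 had an unadjusted p under 0.05, 5 of them higher (7.69% of all genes in either direction). With the striatal marker score as a covariate it was 0.09 and 76 of 82 lay above 0, but no subunit had an unadjusted p under 0.05 (8.6% of all genes). No subunit passed the adjusted threshold either way.

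The second question was whether R-HNK went with a change in injured mice. No subunit passed in R-HNK against injured saline (edgeR, adjusted p under 0.05; 26 of all genes, 0.119%), and DESeq2 called none. At an unadjusted p under 0.05 there were 3 lower subunits (3.66% of 82, against 3.26% of all genes) and 0 higher ones (4.2% of all genes). On the log2 scale 70 of 82 lay below 0 (85.4%, against 48.6% of all genes), with a median of -0.08, and the median of all genes was 0.01. Among genes whose mean log2 CPM was 3 or more, 6129 of 10983 lay below 0, and 66 of the 76 subunits. Groups were separate for 8 subunits, all lower in R-HNK (9.76%, against 6.59% of all genes). None was separate and higher, as 7.15% of all genes were. With plain library totals 1 subunit was separate and lower, and the share of all genes was 4.57%.

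Medians by complex were -0.06, -0.07, -0.08, -0.09 and -0.08 for complexes I to V. When each library was left out in turn they ran from -0.109 to -0.0372 for complex I (ends without injured saline replicates 3 and 1), -0.112 to -0.0607 for complex II and -0.145 to -0.0683 for complex III. Those of complex IV ran from -0.155 to -0.0322 (ends without injured saline replicates 3 and 2), and those of complex V from -0.122 to -0.0511. The 3 subunits at an unadjusted p under 0.05 were Ndufb5 (-0.19 ± 0.08, adjusted p = 0.626, edgeR's quasi-likelihood test), Ndufv2 (-0.19 ± 0.08, adjusted p = 0.626) and Atp5g1 (-0.15 ± 0.07, adjusted p = 0.656). Ndufb5, an accessory subunit of the membrane arm, read 65.6, 72.2 and 65.3 CPM in sham, 68.6, 80.7 and 81.0 in injured saline, and 65.2, 68.3 and 68.5 in R-HNK. Its R-HNK libraries lay just below the lowest injured saline library. In complex IV the smallest p values were those of Cox7b (-0.18 ± 0.09) and Cox5a (-0.17 ± 0.09), and for both the groups overlapped.

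The size of this difference depended on which libraries of both groups were used. The subunit median was -0.0501 without injured saline replicate 2 and -0.111 without injured saline replicate 3, while it was -0.0616, -0.112 and -0.0588 when R-HNK replicate 1, 2 or 3 was left out. With the 4 libraries that were high in striatal markers left out, R-HNK replicate 2 alone stood against the injured saline libraries, and the median of the subunits was -0.03, with that of all genes at -0.01. Cox7b and Cox5a were then at 0.01 and 0.01. Without R-HNK replicate 2, 18 subunits had an unadjusted p under 0.05, all lower, and so did 12.3% of all genes in either direction (5.97% higher), beside 7.47% with every library in. That count was 8, all lower, without injured saline replicate 1 (8.21% of all genes in either direction, 4.52% higher). It was 7, all lower, without injured saline replicate 3 (5.92%, 3.59% higher). It was 1, a higher one, without R-HNK replicate 1 (4.91%, 2.95% higher). With the striatal marker score as a covariate the median was -0.06.

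**Figure D5:**
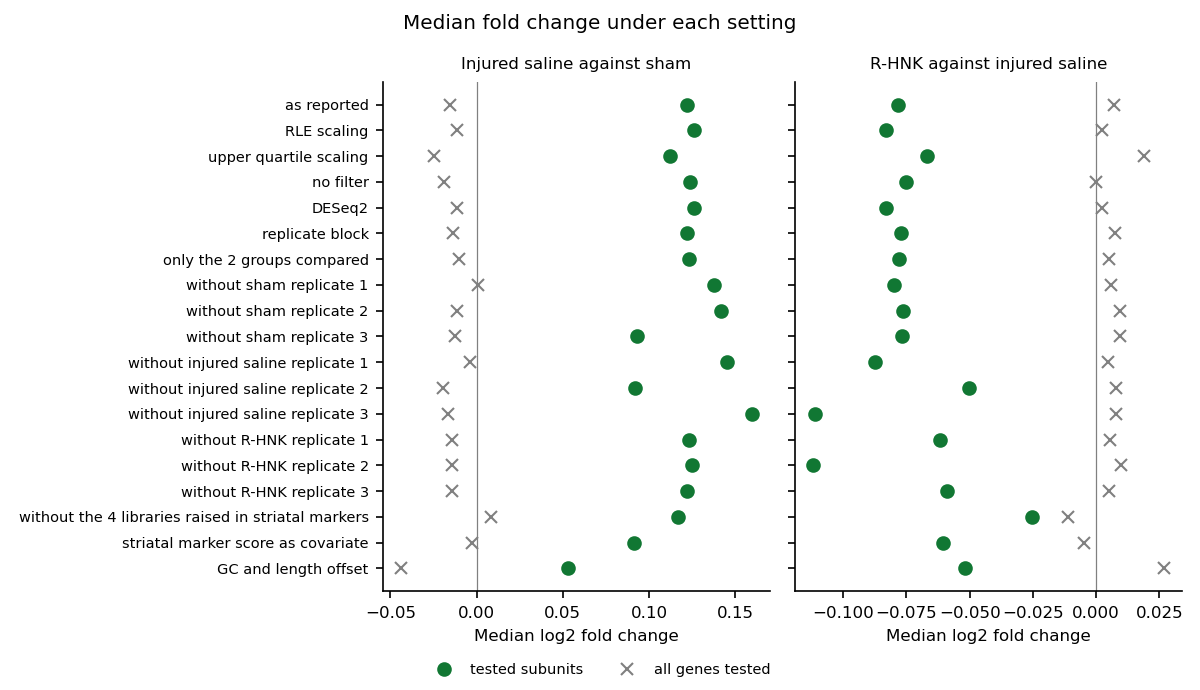
Median log2 fold change (horizontal axis) of the tested subunits (filled points) and of all genes tested (crosses) under each setting (vertical axis). In injured saline against sham the subunit median stays between 0.0529 and 0.16 in all settings, and in R-HNK against injured saline between -0.112 and -0.0252.

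In R-HNK against sham no subunit passed (1 of all genes, 0.00459%) and none had an unadjusted p under 0.05 (3.53% of all genes), and DESeq2 called none. The median was 0.04, that of all genes -0.01, and 69 of 82 subunits lay above 0 (48.3% of all genes). Complex medians ran from 0.03 in complex II to 0.06 in complex III. The widest difference of a well-measured subunit was 0.16 ± 0.09, for Ndufa8. Without R-HNK replicate 2 the median was 0.01, and with the GC and length offset it was -0.00432.

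Subunits with and without promoter letters were set side by side, and no difference between them was tested. In injured saline against sham the median was 0.12 for the 16 with NRF1 letters and 0.12 for the 51 tested subunits whose windows lacked them. For YY1 it was 0.12 with (9) and 0.12 without (58), and for ETS 0.12 with (16) and 0.12 without (51). In R-HNK against injured saline the medians for NRF1 were -0.05 with and -0.08 without. They were -0.06 and -0.08 for YY1, and -0.08 and -0.08 for ETS.

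Pairs of subunits varied together to different degrees over the 9 libraries. Pearson's r had a median of 0.45 over 2850 pairs. Within complexes it was 0.39 in complex I, 0.31 in complex II, 0.56 in complex III, 0.53 in complex IV and 0.66 in complex V, and 0.46 between complexes. All pairs share the same libraries and scaling, so these are descriptions. Ndufs5 followed the mean deviation of the subunits most closely (r = 0.98), and Atp5g2 (r = 0.06) and Ndufs1 (r = 0.07) least.

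Outside the subunits, the profile most like theirs among 10907 genes was that of Map1lc3a, an autophagosome protein (r = 0.98 over 9 libraries), followed by Bag1 (0.98), Pomp (0.95), Ppp2r5a (0.95) and Ap2s1 (0.95). Map1lc3a read 169, 164 and 157 CPM in sham, 197, 210 and 177 in injured saline, and 169, 188 and 173 in R-HNK. Its injured saline libraries stood above its sham libraries without overlap, as for 10.9% of all genes. Because it was chosen for its likeness to the subunits, this is not a separate result.

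Related lists were set beside the subunits, and none of their genes passed the adjusted threshold in any comparison. In injured saline against sham, the 47 assembly factors tested had a median of 0.08, with 36 above 0, against 47.6% of all genes. At an unadjusted p under 0.05, 5 of them were higher and 0 lower, against 7.52% and 9.07% of all genes. Among genes whose mean log2 CPM was 3 or more, 1392 of 10983 were higher at this p. For 19 electron carriers and subunits outside the rule the median was 0.08. Cycs, cytochrome c, had 96.7 ± 6.16 CPM in sham, 114 ± 3.75 in injured saline and 101 ± 8.48 in R-HNK, and Atpif1, the inhibitor of complex V, had 109 ± 1.72, 124 ± 5.08 and 117 ± 3.20 CPM. Their log2 differences were 0.23 ± 0.08 and 0.18 ± 0.06 (SE).

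Other mitochondrial and energy genes lay on the same side. Medians in injured saline against sham were 0.12 for 20 genes of the tricarboxylic acid cycle and pyruvate dehydrogenase and 0.13 for 24 of mitochondrial import and carriers. They were 0.11 for 78 mitochondrial ribosomal proteins and 0.14 for glycolysis, where 17 rows fell under 16 listed symbols. Idh3a, a cycle dehydrogenase, had 176 ± 13.5 CPM in sham, 220 ± 11.6 in injured saline and 186 ± 20.1 in R-HNK. The 86 cytosolic ribosomal proteins had a median of 0.00 and the 22 regulators of mitochondrial biogenesis -0.02. Ppargc1a, the coactivator PGC-1 alpha, had 44.7 ± 6.35, 42.6 ± 5.60 and 39.2 ± 5.83 CPM, a difference of -0.07 ± 0.13 between injured saline and sham.

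Cell type markers moved too. In injured saline against sham, 10 of 10 markers of cortical excitatory neurons lay above 0 (median 0.33, and Neurod6 and Fezf2 rose), 15 of 15 striatal markers below 0 (median -2.30, 0 passed) and 10 of 10 oligodendrocyte markers below 0 (median -0.44, 0 passed). Below 0 too were 10 of 10 markers of meningeal fibroblasts (median -0.97, and Col1a1, Igf2 and Fmod fell), 9 of 10 of astrocytes (-0.34, and Slc4a4 fell), 8 of 9 of choroid plexus and ependyma (-0.75, 0 passed) and 7 of 8 of blood cells (-0.46, 0 passed). Inhibitory interneurons had 5 of 10 below 0 (-0.14, and Reln and Dlx1 fell), microglia 9 of 10 (-0.11), endothelial cells 8 of 10 (-0.09) and muscle and heart 4 of 7 (-0.03), with 0 passed in the last 3 lists. In R-HNK against injured saline the medians were -0.21 for excitatory neurons, 1.42 for striatal, 0.30 for oligodendrocyte, 0.42 for fibroblast, 0.13 for astrocyte, 0.63 for choroid and 0.94 for blood markers. Of the markers in all 11 lists, Dlx1 alone passed there, and it rose.

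Summed marker levels are given as the range over the libraries of a group. Between sham and injured saline the ranges overlapped for excitatory and blood markers, but not for fibroblast, astrocyte and interneuron markers. Fibroblast markers summed to 99.5 to 124 CPM in sham, 70.1 to 75.7 in injured saline and 78.9 to 104 in R-HNK, and excitatory markers to 4860 to 5950, 5600 to 6210 and 5410 to 5520 CPM. Astrocyte markers summed to 3440 to 3880, 3160 to 3370 and 3190 to 3590 CPM, interneuron markers to 1100 to 1340, 1010 to 1030 and 1020 to 1130 CPM, and blood markers to 357 to 542, 285 to 403 and 546 to 724 CPM. Choroid markers summed to at most 24.6 CPM, and 1 of its 10 was at 0 in all 3 injured saline libraries. Other than for striatal markers, the part of these lists in the subunit values was not tested.

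Exons of 29 subunit genes overlap an exon of another gene in the annotation, 26 of them on the opposite strand, and the sources used here do not say whether reads were counted by strand. Uqcrc2, Ndufb5, Atp5f1 and Atp5d are among these genes, so their counts may hold reads of a neighbour.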

How the data were processed

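RNA of 9 mice, 3 per group, was sequenced by the authors. The submitters' processing notes name HISAT2 2.0.5, featureCounts 1.5.0-p3 and mm10, while StringTie stands in the deposited table's name. Its values, whole numbers per gene deposited by the authors without normalization, were treated as estimated counts. The sources used here do not give strand or pair handling. Totals of 53624337 to 73586375 counts limit precision for counting error only, and CPM use TMM-scaled totals (factors 0.979 to 1.03).

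All genes were filtered with filterByExpr, which kept 99.96% of the counts, and fitted in R 4.3.3 with edgeR 4.0.16 (TMM, robust quasi-likelihood test, 1 mean per group, all 9 libraries). The threshold was an adjusted p under 0.05 (Benjamini-Hochberg, over all 21765 genes). The common biological coefficient of variation was 0.203. With 3 mice against 3, an exact permutation test of a single gene cannot go below 0.1. SE is the log2 fold change divided by the square root of edgeR's F. Log2 CPM use a prior count of 2. Scripts were tested on simulated data.

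Genes were matched to GENCODE M21 (GRCm38) for position, exon overlap, and the length and GC content of the principal transcript. Atp5md was matched through its synonym Usmg5. The deposited columns name the group and number of each mouse, and all were used.

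The members and lists were chosen with earlier results of these data known. Named genes are, for each complex, the 3 subunits with the smallest p in injured saline against sham and the 2 with the smallest in R-HNK against injured saline, those highest and lowest per kilobase, isoform sets, the 4 Sdh genes and Ndufa4, up to 2 genes of each other list, and the 5 other genes most like the subunits. Ndufa12, Ndufs6, Ndufa8, Ndufv3, Uqcr11, Cox5b, Atp5a1, Ndufs1, Cox6c2 and Ppargc1a, the markers that passed, and the genes whose promoter stretches are shown, were named after their values were seen. Other settings were other scalings, no filter, DESeq2 1.42.0, each library left out, a fit of only the 2 groups compared, and a block for the replicate number. Leaving out 4 libraries raised in striatal markers, a striatal score covariate, a GC and length offset, and counts of separate groups under other scalings were added after seeing the data.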

Additional observations from a re-analysis of the deposited data

How the results depend on the processing

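No subunit passed the adjusted threshold in any of the 3 comparisons under any setting run. The subunit median in injured saline against sham ran from 0.0921 to 0.16 when each library was left out, and moved to 0.0529 with the GC and length offset. In R-HNK against injured saline it ran from -0.112 to -0.0501, and moved to -0.0252 without the 4 libraries raised in striatal markers, where Cox7b (0.00603) and Cox5a (0.0096) changed sign. In R-HNK against sham it ran from 0.0148 to 0.0689, moved to 0.0971 without those 4 libraries and changed sign to -0.00432 with the GC and length offset, as did complexes I to IV (-0.00306, -0.00824, -0.000871 and -0.00796). Without R-HNK replicate 2, complexes II (-0.0104) and V (-0.000813) changed sign there, within ranges of -0.0104 to 0.0521 and -0.000813 to 0.0764 over the libraries left out. Counts over all genes moved more. In injured saline against sham 233 genes passed, against 370 with no filter, 1185 with DESeq2, 86 without the 4 libraries, 99 with the striatal covariate and 60 to 1170 when a library was left out (1170 without sham replicate 1). In R-HNK against injured saline 26 passed, against 140 with DESeq2, 53 with the 2 groups alone and 7 to 56 with a library left out. In R-HNK against sham 1 passed, against 10 with DESeq2, 25 without the 4 libraries, 2 with the covariate and 1 to 11 with a library left out. Separate groups in favour of R-HNK being lower fell from 8 subunits to 5 (upper quartile) and 1 (library totals), beside 6.59%, 5.87% and 4.57% of all genes. Those higher in injured saline fell from 31 to 19 (library totals), beside 10.9% and 8.05% of all genes. With the replicate number as a block 162, 16 and 2 genes passed, and the subunit medians were 0.122, -0.0772 and 0.0387. The labels do not say whether same-numbered libraries were handled together. Correlations of deviations from group means ran from -0.104 to 0.0917 for same-numbered pairs and from -0.163 to 0.175 for other pairs. The cause of these changes was not tested. Leaving out 1 library gives 2 mice in an arm, and leaving out the 4 gives 1 mouse in the sham and R-HNK arms, which is assumed to vary like the injured saline mice. With 3 mice a group and a median SE of 0.0776, single subunits that differ by about 0.1 on the log2 scale were not detectable after adjustment.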
